A study of Mus musculus with 2 samples.

Results

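The replication-dependent histone genes supply the core histones H2A, H2B, H3 and H4, around which DNA is wound, and the linker histone H1, which binds where DNA enters and leaves the core particle. They were taken as the protein-coding genes whose GENCODE M21 symbol begins with Hist1h, Hist2h, Hist3h or Hist4h. The gene tables held 64 of them among 43346 annotated genes, of which 21474 were protein-coding. The pattern also fits 3 further M21 genes, Hist2h2bb, Hist1h2bm and Hist1h2bh, which had no row in these tables and were not analysed here. By class there were 6 H1, 18 H2A, 15 H2B, 12 H3 and 13 H4 genes. By cluster, 52 lay in Hist1 on chromosome 13, 9 in Hist2 on chromosome 3, 2 in Hist3 on chromosome 11 and 1, Hist4h4, on chromosome 6.

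The RNA came from G1E, a mouse cell line grown from immortalized red cell progenitors. The labels give it as Gata1-, male and postnatal; GATA1 is the transcription factor that drives red cell maturation. Poly(A)-selected RNA was sequenced as single-end reads in 2 libraries, biological replicates 1 and 2, which cite the same biosample and form 1 group. There is no other condition, and no source says whether each library had its own culture, so differences between the libraries may be technical in part or in whole. No test was possible and no p-value is given. Values are those of each library, with replicate 1 first, or the mean ± SD (n = 2).

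Histone genes of this kind are transcribed mainly in S phase, when new DNA must be packed. Their RNAs are known to end, in animal cells, not in a poly(A) tail but just after a short stem-loop, which is bound by the stem-loop binding protein SLBP and cut with the help of the U7 small nuclear RNA. A poly(A)-selected library is therefore expected to hold few of them, unless a gene also yields a tailed RNA or the untailed RNA passes the selection. The genes lie in clusters, and many H2A and H2B genes share a short promoter region from which they are read in opposite directions. Many copies within a core histone class are closely alike, whereas the 6 H1 genes encode 6 different proteins.

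The stem-loop is the sequence feature that defines the family, so its forms are shown first, with the 16 bases of stem and loop in capitals and 5 bases on each side, from the GENCODE M21 transcripts on GRCm38.
Hist1h2ao, chr13:21810893-21810918, plus strand: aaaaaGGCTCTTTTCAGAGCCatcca
Hist1h2bk, chr13:22036295-22036320, plus strand: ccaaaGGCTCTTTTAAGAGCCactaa
Hist1h3g, chr13:23535884-23535909, plus strand: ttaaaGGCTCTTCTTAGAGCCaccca
Hist1h4d, chr13:23581945-23581970, plus strand: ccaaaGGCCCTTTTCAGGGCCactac
Hist1h4b, chr13:23757361-23757386, plus strand: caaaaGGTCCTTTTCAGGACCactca
A match had to lie after the stop codon, with GG at its start, CC at its end, T and A closing a loop of any letters, and all bases between pairing, and 44 of the 64 genes held one. The Hist1h2ao form stood in 24 genes, of classes H1, H2A, H2B and H3, the Hist1h2bk form in 6, that of Hist1h3g in 1, and Hist2h2ac alone had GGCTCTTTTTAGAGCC. All 12 H4 genes with a match had a stem of other letters: 7 had the Hist1h4d form, 2 that of Hist1h4b, 2 the form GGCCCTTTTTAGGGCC and 1 the form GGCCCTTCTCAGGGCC. Searched in the last 300 bases of a transcript, a match was present in 27 of 69 histone transcripts (39.1%) and in 89 of 76679 other protein-coding transcripts (0.116%). A missing match says only that these letters are not in the annotated model, and 14 of the 64 genes had deposited models at most 18 bases longer than their coding sequence.

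Histone RNA was present in both libraries: the 64 genes summed to 6797 TPM in replicate 1 and 5840 in replicate 2 (6318 ± 677, SD, n = 2). TPM is a scaled measure of a gene's share of all transcripts after correction for length. This was 0.806% and 0.777% of the TPM of all protein-coding genes. A level of 1 TPM or more in each library was reached by 50 of the 64 genes (78.1%), against 9118 of 21474 protein-coding genes (42.5%). At 5 TPM the counts were 22 of 64 and 7435 of 21474, so no excess remained at that level. The median histone gene had 3.64 TPM in replicate 1 and 7.77 in replicate 2. The sum was far from evenly divided, since 4 genes in replicate 1 and 5 in replicate 2 were above 100 TPM and all of these encode H2A. In bulk RNA, fewer cells in S phase and less histone RNA per cell cannot be told apart.

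**Figure D1:**
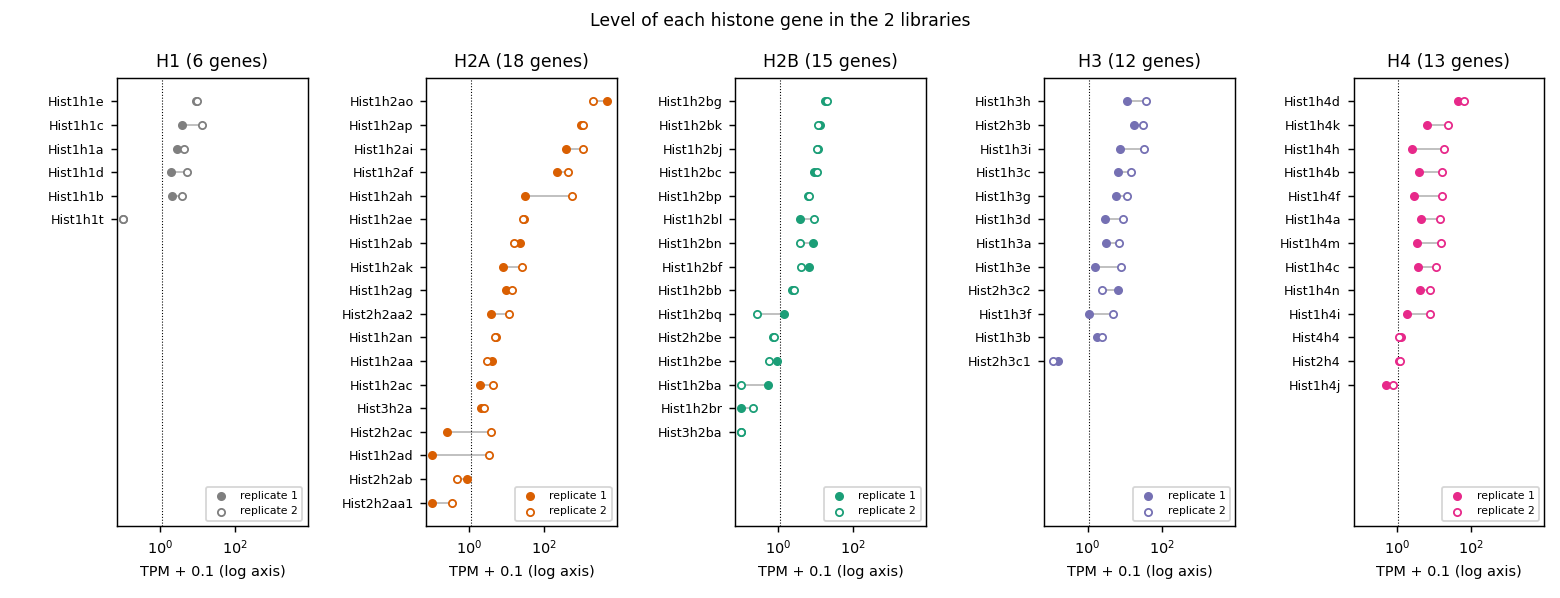
TPM + 0.1 on a log axis for each of the 64 histone genes, in 1 panel per class with genes ordered by mean; filled points are replicate 1, open points replicate 2, and the dotted line marks 1 TPM. The 5 uppermost H2A genes stand apart from all other members in replicate 2. In replicate 1 Hist1h2ah, at 30.9 TPM, is lower than Hist1h4d, at 44.6 TPM. Most H4 and H3 genes have the open point to the right of the filled one.

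The H2A class held 6553 TPM in replicate 1 and 5366 TPM in replicate 2, which was 96.4% and 91.9% of the histone sum (94.2 ± 3.2%). H4 summed to 79.9 and 198 TPM, H3 to 63.97 and 160 TPM, H2B to 80.3 and 79.8 TPM and H1 to 19.3 and 35.7 TPM. The H2B sum was nearly equal in the 2 libraries, whereas the H3 and H4 sums in replicate 1 were 0.400 and 0.403 times those in replicate 2. The core particle takes up equal amounts of H2A, H2B, H3 and H4 protein. The summed H2A RNA level was 81.6 times the H2B level in replicate 1 and 67.3 times in replicate 2, and the H3 level was 0.801 and 0.808 times the H4 level. Without the 5 highest H2A genes, a split made after seeing the values, the remaining 13 H2A genes held 87.3 and 115 TPM, or 1.09 and 1.44 times the H2B sum and 1.09 and 0.582 times the H4 sum. The 59 genes other than those 5 summed to 331 and 589 TPM.

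**Figure D2:**
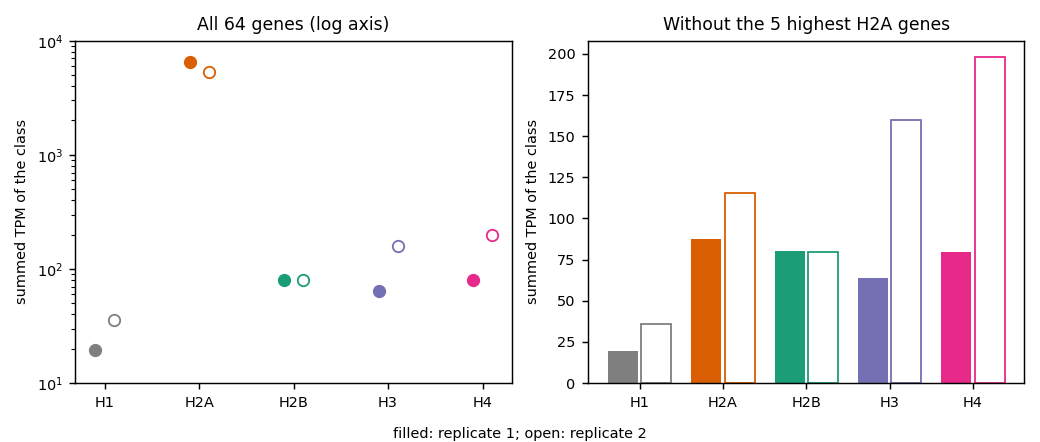
Summed TPM of each histone class, filled for replicate 1 and open for replicate 2, over all 64 genes on a log axis (left) and without the 5 highest H2A genes on a linear axis from 0 (right). H2A stands at 6553 and 5366 TPM on the left and at 87.3 and 115 TPM on the right, where the H3 and H4 bars are higher in replicate 2.

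The 5 highest genes by mean were all H2A genes of the Hist1 cluster. Hist1h2ao (ENSMUSG00000094248, chr13:21810465-21810944, plus strand) had 4853 TPM in replicate 1 and 2039 in replicate 2. Its mean lay above that of 99.9% of protein-coding genes. Hist1h2ap (chr13:21833026-21833507, minus strand) had 968 and 1100 TPM. Hist1h2ai (chr13:21716422-21716814, plus strand) had 388 and 1108 TPM. The levels of Hist1h2ap were close in the libraries, those of Hist1h2ao and Hist1h2ai were not, and in opposite directions. Hist1h2af (chr13:23533906-23534304, plus strand) had 226 and 438 TPM. Hist1h2ah (chr13:22035164-22035568, minus strand) had 30.9 and 566 TPM. The deposited credibility interval of Hist1h2ah ran from 11.5 to 61.7 TPM in replicate 1. In replicate 2 it ran from 482 to 685 TPM, so the intervals did not overlap. The level of the intervals is not stated. An interval need not hold the TPM quoted here. That of Hist1h2ao in replicate 1, from 4589 to 4743 TPM, held the deposited posterior mean of 4665 TPM but not the TPM of 4853.

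These 5 genes together held 6466 and 5251 TPM, 95.1% and 89.9% of the histone sum, a ratio of 1.23 between the libraries. Their division differed much more than their sum: Hist1h2ao alone took 71.4% of the histone TPM in replicate 1 and 34.9% in replicate 2. The order of the 5 also differed, with Hist1h2ap second in replicate 1 and Hist1h2ai level with it in replicate 2.

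The 5 transcripts share much of their sequence with each other and with further H2A genes. Stretches of 36 bases common to all 5 made up between 48.3% and 60.3% of each transcript; Hist1h2ao shared 93.7% of its stretches with Hist1h2ap, 59.3% with Hist1h2ai and 56.0% with Hist1h2af. The longest stretch common to all 5 has 141 bases and lies within the coding sequence, here at its position in Hist1h2ao, chr13:21810617-21810757, plus strand of GRCm38.
Stretch common to the 5 highest H2A genes: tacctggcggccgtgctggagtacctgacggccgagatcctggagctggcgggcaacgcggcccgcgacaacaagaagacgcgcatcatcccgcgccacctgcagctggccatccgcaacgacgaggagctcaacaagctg
The same 141 bases stood in 11 of the 18 H2A genes and in Hist1h2aj, an unprocessed pseudogene. Of all stretches of 36 bases, the read length of replicate 1, 93.7% of those in Hist1h2ao, 93.3% in Hist1h2ap, 90.5% in Hist1h2ai, 91.1% in Hist1h2ah and 84.3% in Hist1h2af were also present in another gene of the M21 models. Hist1h2ao held 28 such stretches found in no other gene, out of 445. Genes that are not members, H2afx and pseudogenes among them, held 60.0% of the stretches of Hist1h2ao and 59.7% of those of Hist1h2ap. For Hist1h2ai, Hist1h2af and Hist1h2ah these shares were 89.1%, 69.2% and 80.5%. Between 24.6% and 30.7% of the stretches of each of the 5 genes were also in H2afx, the single-copy H2A.X gene that is active outside S phase as well and makes a tailed RNA. H2afx had 284 and 144 TPM. How reads were shared among these genes was estimated by the authors' quantification, so the level of each of the 5 genes is uncertain. Their sum, and with it the H2A share of the histone TPM, is uncertain too. The part of read length, 36 nt in replicate 1 and 55 nt in replicate 2, in their division was not tested. Where the deposited and M21 models differ in length, the sets of members under 50% below were taken by an upper limit on sharing, and those over 90% by the M21 value itself.

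**Figure D3:**
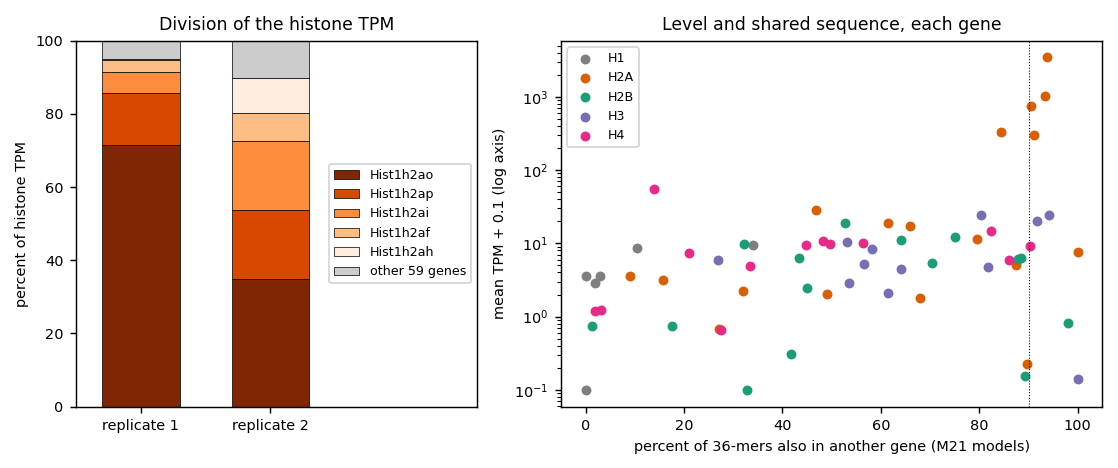
Left, the division of the histone TPM in each library among the 5 highest H2A genes and the other 59 genes, in percent. Right, each gene's mean TPM + 0.1 on a log axis against the percent of its 36-base stretches that another gene holds, colored by class, with a dotted line at 90%. The Hist1h2ao block fills 71.4% of replicate 1 and 34.9% of replicate 2, and 4 of the 5 highest genes lie right of the line.

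Of the other H2A genes that ranked high, Hist1h2ae had 29.96 TPM in replicate 1 and 26.6 in replicate 2. Hist1h2ab had 22.7 and 15.4 TPM. Hist1h2ak had 7.81 and 26.4 TPM, and Hist1h2ag had 9.34 and 13.5 TPM. Hist1h2ae, Hist1h2ab and Hist1h2ag were thus within a factor of 2 between the libraries, and Hist1h2ak was not. The 9 lower H2A genes averaged between 0.125 and 7.47 TPM. Among them Hist1h2ad was at 0 TPM in replicate 1 and had 3.36 in replicate 2; between 67.97% and 85.3% of its 36-base stretches were in other genes, and its deposited interval in replicate 1 reached 9.47 TPM. Hist1h2aa, known as a histone of the testis, had 3.98 and 2.93 TPM with 9.01% of its stretches shared.

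H2B pairs with H2A to form the dimers on either side of the core particle, and its 15 genes gave the most even levels. Hist1h2bg led with 17.3 TPM in replicate 1 and 20.5 in replicate 2. Hist1h2bk had 12.9 and 11.4 TPM, Hist1h2bj 11.3 and 10.5 TPM and Hist1h2bc 8.69 and 10.5 TPM. These 4 genes differed little between the libraries. Hist1h2bp followed with 6.12 and 6.47 TPM, Hist1h2bl with 3.61 and 8.92 TPM, Hist1h2bn with 8.53 and 3.58 TPM and Hist1h2bf with 6.58 and 4.03 TPM. Hist1h2bl and Hist1h2bn moved in opposite directions; 88.4% and 87.9% of their stretches were shared with other genes. The 7 lower genes averaged at most 2.36 TPM. Hist3h2ba had no count in either library, which with a limit of 3 counts allows up to 0.222 TPM in replicate 1 and 0.118 in replicate 2.

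H3 carries the tail that holds many of the best known chromatin marks. Hist1h3h had 11.6 TPM in replicate 1 and 37.3 in replicate 2. Hist2h3b, in the Hist2 cluster, had 17.0 and 31.2 TPM. Hist1h3i had 7.09 and 32.6 TPM. Of the 36-base stretches of Hist1h3h, Hist2h3b and Hist1h3i, 94.1%, 80.4% and 91.8% were also in other genes. The deposited intervals in replicate 1 ran from 1.33 to 17.6 TPM for Hist1h3h and from 0.763 to 15.7 TPM for Hist1h3i. Hist1h3h, Hist2h3b and Hist1h3i were all lower in replicate 1. So were Hist1h3c with 6.40 and 14.5 TPM, Hist1h3g with 5.53 and 11.3 TPM and Hist1h3d with 2.77 and 8.96 TPM. The other 6 averaged between 0.04 and 5.08 TPM, and among these Hist2h3c2 was higher in replicate 1, with 6.35 and 2.39 TPM.

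H4 was led by Hist1h4d (chr13:23581598-23582735, plus strand) with 44.6 TPM in replicate 1 and 64.9 in replicate 2. It had the highest mean outside H2A. At most 42.7% of its 36-base stretches were shared with other genes, so its level rests more on reads of its own than that of the H2A leaders. Hist1h4k had 6.35 and 23.0 TPM, Hist1h4h 2.42 and 18.9 TPM and Hist1h4b 3.87 and 15.9 TPM. Hist1h4f had 2.82 and 16.6 TPM, Hist1h4a 4.40 and 14.6 TPM and Hist1h4m 3.33 and 14.8 TPM. All 6 were lower in replicate 1, each more than 3-fold in TPM. Of the stretches of Hist1h4k and Hist1h4m, 82.3% and 90.2% were shared with other genes. The other 6 H4 genes averaged between 0.55 and 7.33 TPM; Hist2h4 with 1.07 and 1.12 TPM and Hist4h4 with 1.17 and 1.07 TPM, the H4 genes outside the Hist1 cluster, were nearly the same in both libraries.

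Linker histone genes were low. Hist1h1e, which encodes H1.4, had 9.12 TPM in replicate 1 and 9.49 in replicate 2. Hist1h1c, which encodes H1.2, had 3.74 and 13.1 TPM, and Hist1h1a, which encodes H1.1, had 2.68 and 4.39 TPM. Hist1h1e was level between the libraries and Hist1h1c was not. Hist1h1d and Hist1h1b averaged 3.47 and 2.81 TPM. Hist1h1t, the linker histone of the testis, had no count in either library, which allows up to 0.185 TPM in replicate 1 and 0.098 in replicate 2.

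By cluster, Hist1 held 99.5% of the histone TPM in replicate 1 and 99.1% in replicate 2, Hist2 0.436% and 0.875%, and the genes of Hist3 and Hist4 the rest. Without the 5 highest H2A genes Hist1 still held 90.4% on average. Hist2h3b alone supplied most of the Hist2 sum of 29.7 and 51.1 TPM.

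Because several genes encode the same protein, levels were also summed by identical translations of the annotated coding sequences. The 13 H4 genes encode 1 protein. The 12 H3 genes encode 2 proteins of 136 residues that differ at 1 residue: H3.1 from Hist1h3a, Hist1h3g, Hist1h3h and Hist1h3i, and H3.2 from the other 8 genes. H3.1 genes held 42.6% of H3 TPM in replicate 1 and 55.1% in replicate 2 (48.9 ± 8.8%), so the libraries differ on which form was higher. Leaving out the genes that share over 90% of their stretches, Hist1h3h and Hist1h3i among them, brought the H3.1 share to 19.7%. The 18 H2A genes encode 9 proteins, and a protein encoded by 9 of the genes, Hist1h2ao, Hist1h2ap and Hist1h2ai included, held 95.8% and 80.4% of H2A TPM. Hist1h2af encodes a protein that differs from it at 1 of 130 residues. The 15 H2B genes encode 9 proteins, and those shared by Hist1h2bc, Hist1h2be and Hist1h2bg and by Hist1h2bf, Hist1h2bj, Hist1h2bl, Hist1h2bn and Hist1h2br held 33.3% and 39.4%, and 37.4% and 34.0%, of H2B TPM.

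Poly(A) selection makes the annotated 3' end of each gene relevant. A gene was counted as having a poly(A)-type end when a transcript held AATAAA or ATTAAA in its last 50 bases or went on for more than 100 bases past the stem-loop. The signal is shown in capitals for 2 genes that also hold a stem-loop further upstream, Hist1h2ae on the minus strand at chr13:23570534-23570549 and Hist1h4i on the minus strand at chr13:22040646-22040661.
Hist1h2ae signal: tctccAATAAAtgggt
Hist1h4i signal: tttacATTAAAagtat
Such an end was annotated for 27 genes, a stem-loop without such an end for 20, and neither for 17. The 27 genes held 2.14% of the histone TPM in replicate 1 and 3.99% in replicate 2 (3.07 ± 1.31%), and the 20 genes with a stem-loop end held 87.1% and 56.6%. Without the H2A class the 27 became 24 genes, which held 46.0% and 42.2% of the remaining TPM. These ends come from M21, whose models are longer than the deposited ones for many genes: for Hist1h4d the deposited model had 393 bases and the M21 model 1138. Among members with the same model length in both annotations, 13 had a poly(A)-type end and held 0.420% and 1.02% of the TPM of all such members. An annotated end does not show where the sequenced RNA ended. The whole TPM of a gene was counted, whichever transcript held the end. Hist1h2bp was counted through a transcript at 0 and 0.13 TPM, while its transcript with the stem-loop had 6.12 and 6.34 TPM.

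Promoters from RefSeq (GRCm38.p6) were found for 56 of the 64 genes and searched over 300 bases, on both strands, for CCAAT, the box bound by the NF-Y complex, for TATAAA, and for ATTTGCAT, the octamer bound by Oct1. CCAAT was in every promoter found for H1, H2A, H2B and H3 but in 3 of 12 H4 promoters, against 37.4% of all 32851 promoters in the table. TATAAA was in 34 of 56, against 13.6%. The octamer was in 7 of 16 H2A and 4 of 13 H2B promoters and in none of the H1, H3 and H4 promoters found, against 1.74%; some matches stand for both genes of a pair, which share the region. The 150 bases before the start are shown for the leading genes outside the 5, Hist1h2ae and Hist1h4d, with all matches in capitals on either strand, at chr13:23571221-23571370 on the minus strand and chr13:23581418-23581567 on the plus strand.
Hist1h2ae promoter: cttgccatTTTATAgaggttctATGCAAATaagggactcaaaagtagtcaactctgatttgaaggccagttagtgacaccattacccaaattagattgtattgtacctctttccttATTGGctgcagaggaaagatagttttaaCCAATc
Hist1h4d promoter: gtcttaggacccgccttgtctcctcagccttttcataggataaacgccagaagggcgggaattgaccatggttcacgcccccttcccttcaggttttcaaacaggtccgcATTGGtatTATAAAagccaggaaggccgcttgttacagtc
A match of letters is a description and not evidence of binding.

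Divergent H2A and H2B genes gave 12 pairs, with 176 to 306 bases between their starts. The H2A gene was higher in both libraries in 6 pairs and the H2B gene in 3. Hist1h2ae and Hist1h2bg, which share the region shown above, were close: 29.96 and 26.6 TPM for Hist1h2ae, against 17.3 and 20.5 TPM for Hist1h2bg. Hist1h2ag had 9.34 and 13.5 TPM, against 11.3 and 10.5 TPM for Hist1h2bj, and Hist1h2an had 5.12 and 4.81 TPM, against 6.12 and 6.47 TPM for Hist1h2bp. These were the 3 pairs within 2-fold in both libraries. At the other end Hist1h2ao had 4853 and 2039 TPM, against 1.28 and 0.17 TPM for Hist1h2bq. Hist1h2ap had 968 and 1100 TPM, against 0 and 0.11 TPM for Hist1h2br. Hist1h2ai had 388 and 1108 TPM, against 3.61 and 8.92 TPM for Hist1h2bl, and Hist1h2ah had 30.9 and 566 TPM, against 12.9 and 11.4 TPM for Hist1h2bk. Hist1h2bk was second among the H2B genes by mean, and Hist1h2bq and Hist1h2br averaged under 1 TPM. Of the 36-base stretches of Hist1h2bq and Hist1h2br, 98.0% and 89.3% were also in other genes, and no stem-loop match was found in their models. The levels of these 2 genes, and so the gaps to their partners, are therefore uncertain. Hist1h2af, the remaining gene of the 5, was in no pair. Pairs were sought only among genes with a row, so the H2B genes Hist1h2bh, Hist1h2bm and Hist2h2bb could not appear. Hist1h2ak with 7.81 and 26.4 TPM stood against 8.53 and 3.58 TPM for Hist1h2bn, and Hist1h2ac with 1.84 and 4.22 TPM against 8.69 and 10.5 TPM for Hist1h2bc. Hist1h2ad had 0 and 3.36 TPM, against 6.58 and 4.03 TPM for Hist1h2bf.

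**Figure D4:**
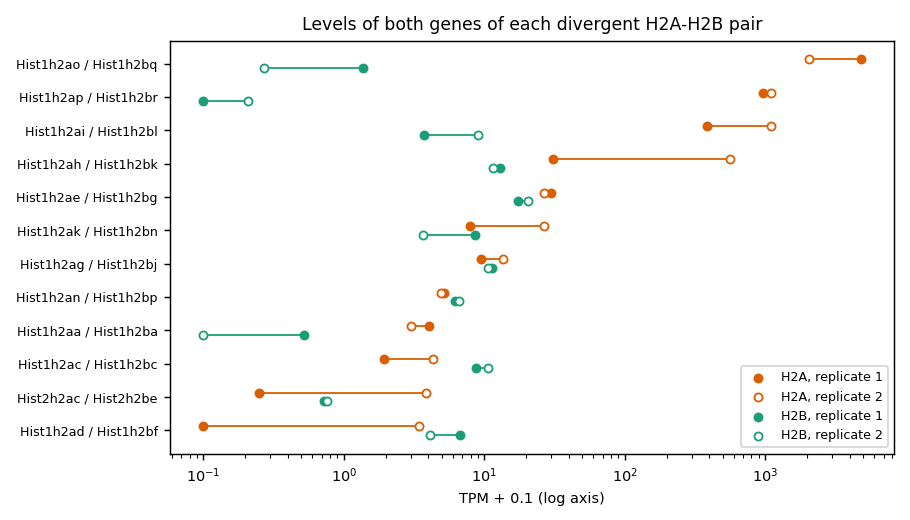
TPM + 0.1 on a log axis for both genes of the 12 divergent pairs, H2A in orange and H2B in green, filled for replicate 1 and open for replicate 2. The 3 pairs at the top are separated by more than 100-fold, whereas Hist1h2ae and Hist1h2bg, Hist1h2ag and Hist1h2bj, and Hist1h2an and Hist1h2bp lie close together.

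The libraries themselves were 31633573 expected counts deep in replicate 1 and 56978193 in replicate 2, over annotated genes. To set them side by side, counts were scaled by TMM library sizes, which are meant to equalize the bulk of genes. Genes with at least 50 counts in total were called apart at a ratio of 2 or more. Of the 56 members tested, 30 were lower in replicate 1, 53.6%, against 22.3% of the 12414 genes tested, and 4 were higher, 7.14%, against 10.2%. Apart in either direction were 60.7% of the tested members and 32.5% of all tested genes. The median log2 ratio of the members, replicate 1 over replicate 2, was -1.15. That of all tested genes was -0.28, so the scaling did not fully equalize the bulk. With TPM + 1 and TPM + 0.1 the median of all tested genes was 0.06 and 0.07. On those scales 23 and 26 of the 56 members were lower in replicate 1, and 3 and 4 were higher. In either direction 26 and 30 of the 56 were apart, against 20.3% and 29.7% of all tested genes. The split by direction over all tested genes was not computed on those scales. The members that were higher in replicate 1 were Hist1h2ao, Hist1h2bn, Hist1h2bq and Hist2h3c2. Of their 36-base stretches 93.7%, 87.9%, 98.0% and 64.1%, in this order, were also in other genes.

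The ratio differed by class, while of all tested genes 22.3% were lower and 10.2% higher in replicate 1. H4 had a median log2 ratio of -2.01, with 9 of 12 tested genes lower in replicate 1, and H3 had -1.42, with 9 of 11 lower. H1 had -1.18, with 3 of 5 lower, and H2A had -0.98, with 8 of 16 lower. H2B had -0.23, near the median of all tested genes, with 1 of 12 lower. The H4 genes called were Hist1h4a, Hist1h4b, Hist1h4c, Hist1h4f, Hist1h4h, Hist1h4i, Hist1h4k, Hist1h4m and Hist1h4n, from -3.17 for Hist1h4h to -1.11 for Hist1h4n. The H3 genes were Hist1h3a, Hist1h3c, Hist1h3d, Hist1h3e, Hist1h3f, Hist1h3g, Hist1h3h, Hist1h3i and Hist2h3b. The H2A genes were Hist1h2ac, Hist1h2ad, Hist1h2af, Hist1h2ah, Hist1h2ai, Hist1h2ak, Hist2h2aa2 and Hist2h2ac, with -4.42 for Hist1h2ah, and the others were Hist1h1b, Hist1h1c, Hist1h1d and Hist1h2bl. Among the 17 tested members with under 50% of their stretches shared, 9 were lower and 0 higher in replicate 1, with a median of -1.18. Most of the 17 were H4 or H1 genes and none was an H3 gene, so this count does not speak for H3. With 1 library against 1 there is no replicate check on any ratio.

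RNAs that carry no poly(A) tail were also lower in replicate 1. Of 8 such RNAs, a list added after the data were seen, 7 could be tested and all 7 were lower in replicate 1, with a median log2 ratio of -1.96, against 22.3% lower and a median of -0.28 over all tested genes. Rn7s1 and Rn7s2 had nearly equal counts, 771 each in replicate 1 and 4729 and 4730 in replicate 2, and are not separate measurements. Among the others Rn7sk had 1437 counts in replicate 1 and 5524 in replicate 2, and Rmrp had 60.2 and 768. How far selection for tailed RNA differed between the libraries, and its part in the histone ratios, was not tested.

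**Figure D5:**
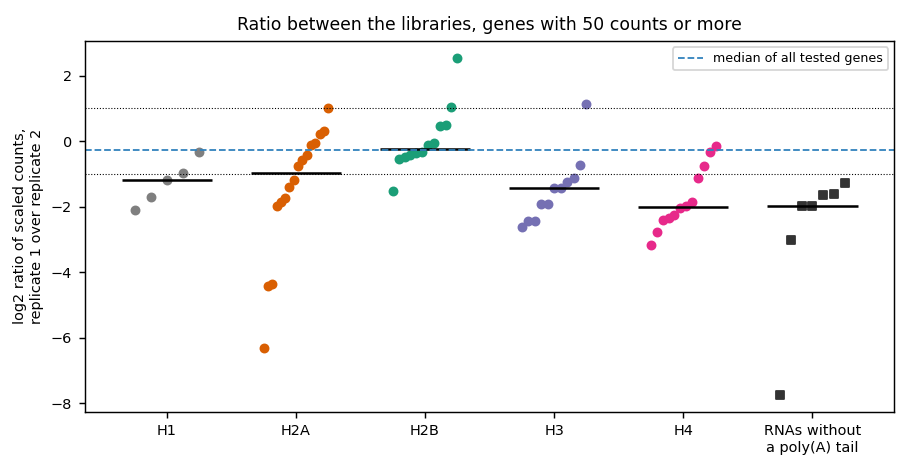
Log2 ratio of TMM-scaled counts, replicate 1 over replicate 2, for each tested histone gene by class and for 7 RNAs without a poly(A) tail; black lines are medians, the dashed line is the median of all tested genes and dotted lines mark 2-fold. The medians are -1.18 for H1, -0.98 for H2A, -0.23 for H2B, -1.42 for H3, -2.01 for H4 and -1.96 for the untailed RNAs.

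Slbp and most other genes that make and process histone RNA were detected. Of 25 measured genes for its transcription, processing and decay, 24 reached 1 TPM in each library, against 42.5% of all protein-coding genes. Sympk, a scaffold of the cleavage complex, had 372 TPM in replicate 1 and 169 in replicate 2, Srrt, which links capped RNA to processing, had 185 and 140 TPM, and Tut4, whose human counterpart adds uridines to histone RNA for decay, had 158 and 90.7 TPM. Slbp had 105 and 113 TPM, and a log2 ratio of -0.63 by TMM-scaled counts, short of 2-fold. Cstf2, a polyadenylation factor, had 116 and 90.04 TPM. Zfp473, which binds the U7 particle, was lowest with 0.99 and 1.4 TPM. By TMM-scaled counts 5 of the 25 were 2-fold lower in replicate 1, near the 22.3% of all tested genes, and Nfya was higher. The lower ones included Npat, the coactivator of histone transcription in S phase, with 7.22 and 14.6 TPM; Npat and Nfya are named after their values were seen.

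Chaperones that carry histones to DNA were all at 1 TPM or more, 17 of 17, against 42.5% of all protein-coding genes. Their median was 118 TPM. Ssrp1, of the FACT complex, had 340 and 329 TPM, Mcm2, of the replicative helicase, 361 and 248 TPM, and Rbbp7 104 and 323 TPM. Tonsl had 222 and 153 TPM and Asf1b, which hands over H3 and H4, 174 and 101 TPM. Of the 17, 7 were 2-fold lower in replicate 1 and 0 higher, against 22.3% and 10.2% of all tested genes; their median log2 ratio was -0.40, against -0.28 over all tested genes.

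Replacement variants, which can be made outside S phase as well, gave 8 of 11 genes at 1 TPM or more, against 42.5% of all protein-coding genes. H2afz had 1973 TPM in replicate 1 and 3421 in replicate 2, H3f3a 1187 and 1053 TPM, H3f3b 538 and 854 TPM, H2afy 408 and 261 TPM and H2afx 284 and 144 TPM. H2afy2 had 0.21 and 0.01 TPM, H1f0 0.04 and 0.05 TPM, and H1fx was at 0 in both. The replicated H3 genes together had 63.97 and 160 TPM, against 1724 and 1908 TPM for H3f3a and H3f3b, so the replacement genes were 27.0 and 11.9 times as high. For H2A the order was the reverse, with replicated genes 2.27 and 1.33 times the replacement sum of 2891 and 4035 TPM. That order rested on the 5 highest H2A genes: without them the replicated H2A genes held 87.3 and 115 TPM, below the replacement sum. In H1 the order was likewise replicated over replacement, 19.3 and 35.7 TPM, against 0.04 and 0.05 TPM. The RNA was selected for poly(A) tails, which RNAs of the replication-dependent genes are known mostly to lack. These ratios therefore describe the selected RNA and not all histone RNA of the cells.

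Of the 6 germ cell histones, Hist1h2aa was the 1 at 1 TPM or more in both libraries; Hist1h2ba had 0.42 and 0 TPM, H1fnt had 0 and 0.10 TPM, and Hist1h1t, Hils1 and H1foo were at 0. The cell type label was checked with markers: 10 of 10 erythroid progenitor genes reached 1 TPM, against 42.5% of all protein-coding genes. Their sums were 2920 and 1778 TPM. Gata1 itself had 88.2 and 61.4 TPM. No cells of intact Gata1 are here to set it against, so its RNA level does not check the label. Of 9 markers of other blood cells 2, Pf4 and Cpa3, passed, the 9 summed to 19.7 and 29.8 TPM, and Elane was at 0.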

How the data were processed

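Poly(A)-selected RNA of 2 G1E libraries was read as the gene and transcript tables that the authors deposited, on mm10 with annotation M4 per the labels' notes; for the aligner, the quantifier and the use of strand the entry is: not given in the sources used here. Per the file headers, the expected counts are the authors' estimated reads per gene, in which reads that fit several genes are divided. TPM and FPKM, as deposited, are those values per length and depth, with posterior mean TPM beside them. The bounds of the deposited credibility intervals of TPM were treated as a signal that is never negative. The percent columns are the authors' isoform percentages, per the file headers. The libraries hold 31633573 and 56978193 expected counts over annotated genes; entries naming no gene took 0.0363% and 0.00942% of counts and were left out. A count of 0 allows up to 3 counts, for counting error only.

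Members were matched by gene identifier to GENCODE M21 (GRCm38). Levels are TPM as deposited. For ratios, expected counts were rounded and scaled by TMM (edgeR 4.0.16, R 4.3.3), 0.5 was added, and genes with at least 50 counts in total were called apart at 2-fold; with 1 library against 1 no p-value was computed. The step was tested on simulated data. Beyond library size, the simulated counts differed only by known changes and counting error. The test therefore does not cover other differences between the real libraries, such as read length. Shared sequence was counted as stretches of 36 and 55 bases present in another gene's M21 transcripts, stem-loops, ends and translations were read from M21, and promoters from RefSeq. Proteins were grouped by translating M21 coding sequences, in place of the RefSeq protein table planned at first. Named are the members in the upper part of each class by mean TPM, those with no count, those called apart and their divergent partners, and of each list up to 5 genes of highest mean TPM and those under 1 TPM. Members and lists were chosen with earlier results of these data known. Alternatives were DESeq2 1.42.0 size factors, other thresholds, pseudocounts and windows, TPM rescaled over protein-coding genes, and sums without one library, without members of highly shared sequence and without the 5 highest H2A genes.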

Additional observations from a re-analysis of the deposited data

Results flagged for a closer look

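A pair of histone-like pseudogene entries held reads, in data that the comparisons above do not use and with no control samples to set them against. Hist1h2al, a processed pseudogene on chromosome 13, had 8.88 expected counts in replicate 1 and 132 in replicate 2, or 1.11 and 8.98 TPM, above the limit of 3 counts that a count of 0 allows. Gm11336, an unprocessed pseudogene, had 14.9 and 47.7 expected counts, or 2.14 and 3.76 TPM. By TMM-scaled counts Hist1h2al was 2-fold lower in replicate 1, and Gm11336, with a log2 ratio of -0.99, did not pass 2-fold. Whether these reads came from the pseudogenes or from coding copies was not tested.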

How the results depend on the processing

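No paired analysis was possible because the series holds 1 group of 2 libraries. The sum of 6318 TPM was 7914 TPM with TPM rescaled over protein-coding genes, 731 TPM without the 10 members sharing over 90% of their 36-base stretches, and 460 TPM without the 5 highest H2A genes. The same 2 removals brought the H2A share of 94.2% to 58.4% and 23.0%, the Hist1 share of 99.3% to 94.9% and 90.4%, and the poly(A)-end share of 3.07% to 26.1% and 41.8%. The share of the main H2A protein became 17.4% without the highly shared members. The poly(A)-end share was 1.22% when only a signal in the last 40 bases counted, without the rule on bases past the stem-loop; a signal in the last 50 bases alone gave the same value, so the change came from that rule. It was 0.719% among members with the same model length in both annotations. At 5 TPM 22 of 64 members passed, against 50 at 1 TPM. Of all protein-coding genes 7435 of 21474 passed 5 TPM in both libraries, so no excess of the members remained there. Of the germ cell histones 0 passed 5 TPM, against 1 at 1 TPM. In single libraries the sum was 5840 to 6797 TPM, the H2A share 91.9% to 96.4%, the Hist1 share 99.1% to 99.5% and the poly(A)-end share 2.14% to 3.99%. Members called apart numbered 34 of 56, against 32.5% of all tested genes. They numbered 34 with DESeq2 size factors and with a pseudocount of 2, 30 with TPM + 0.1 against 29.7% of genes, 26 with TPM + 1 against 20.3%, and 30 of 51 without the 5 highest H2A genes. With no count minimum they were 38 of 62, against 62.4% of genes, so no excess over all genes remained there. The removal of the 5 H2A genes and the same-length models were chosen after seeing the data. Depth limits levels near 1 TPM, which rest on few counts in short models.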
